A study of Homo sapiens with 16 samples.

Results

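Imprinted genes are transcribed mainly from the copy inherited from 1 parent, and 10 of them in 7 genomic windows are described here in a pair of Ewing sarcoma cell lines. Every peak of the 6 deposited lists that overlapped a window by at least 1 bp was taken, which gave 51 of the 114213 peaks on chromosomes 1 to 22 and X. The rule for the windows is one of position (hg19). They cover H19 and IGF2 (chromosome 11, 1.99 to 2.2 Mb), KCNQ1OT1 and CDKN1C (chromosome 11, 2.6 to 2.92 Mb), DLK1 and MEG3 (chromosome 14, 101.17 to 101.35 Mb), PEG10 (chromosome 7, 94.27 to 94.31 Mb), MEST (chromosome 7, 130.11 to 130.16 Mb), GNAS (chromosome 20, 57.40 to 57.50 Mb) and PEG3 (chromosome 19, 57.31 to 57.36 Mb). Together they span 0.95 Mb.

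TC-71 and TC-32 are established lines of Ewing sarcoma, a tumour of bone and soft tissue, and their therapy label is post-chemotherapy for TC-71 and diagnosis for TC-32. Chromatin from cells grown in RPMI-1640 with serum was fixed with formaldehyde and precipitated with antibodies against BORIS, SMC1 or the acetylated histone H3K27ac, with input chromatin alongside. Each of the 4 kinds of library was made from 2 samples per line, 16 in all, and the labels do not say whether the 2 came from separate cultures. Neither line carried a treatment or an engineered allele in the labels, and each group is 1 cell line. Both samples of an antibody and line point to a single list, so no value below has a replicate error and no test between the lines was possible.

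At an imprinted locus, DNA methylation laid down in the germ line of 1 parent marks a control region, and that mark decides which copy of the neighbouring genes is used. The best known case lies between H19 and IGF2, where the insulator protein CTCF binds only the unmethylated maternal copy, holds cohesin there and keeps the enhancers from reaching IGF2. Cohesin is the ring complex that extrudes chromatin loops, and SMC1 is one of its subunits, so SMC1 peaks elsewhere in the genome tend to lie at CTCF sites. BORIS (CTCFL) is a germ-line paralog of CTCF with nearly the same zinc fingers, and H3K27ac marks active promoters and enhancers. A peak list does not tell the parental copies apart, and CTCF and DNA methylation were not analysed here.

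Promoter sequences are shown for the genes that the RefSeq table of 300-base promoters covers, so that their CpG content and any CTCF-type word can be seen. Entries were found for 4 of the 10 genes, 15 in all, each with 250 bases before and 50 after a start site in GRCh38.p14. The window coordinates are hg19, so the sequences were not set against the peaks. Both strands were searched for AGNNGGCGC (reverse complement GCGCCNNCT), a 9-base core of the CTCF-type motif that was chosen after the sequences had been seen, and capitals mark its match. The promoters printed are the only H19 entry, the first MEG3 and MEST entries, and the GNAS entry with the most CpG dinucleotides.
H19 (chr11:2001217-2001516, GRCh38.p14, minus strand): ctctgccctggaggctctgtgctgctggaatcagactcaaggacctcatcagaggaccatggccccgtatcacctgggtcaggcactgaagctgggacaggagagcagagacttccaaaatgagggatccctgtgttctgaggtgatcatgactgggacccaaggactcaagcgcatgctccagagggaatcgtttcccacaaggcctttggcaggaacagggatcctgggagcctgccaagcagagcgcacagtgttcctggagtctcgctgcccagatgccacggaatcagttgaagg
MEG3 (chr14:100825858-100826157, GRCh38.p14, plus strand): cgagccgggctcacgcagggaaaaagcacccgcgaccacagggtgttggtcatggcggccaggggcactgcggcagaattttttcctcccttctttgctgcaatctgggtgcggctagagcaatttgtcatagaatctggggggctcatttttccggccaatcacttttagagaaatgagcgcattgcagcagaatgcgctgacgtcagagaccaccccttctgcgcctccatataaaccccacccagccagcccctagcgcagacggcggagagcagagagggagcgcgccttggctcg
MEST (chr7:130485925-130486224, GRCh38.p14, plus strand): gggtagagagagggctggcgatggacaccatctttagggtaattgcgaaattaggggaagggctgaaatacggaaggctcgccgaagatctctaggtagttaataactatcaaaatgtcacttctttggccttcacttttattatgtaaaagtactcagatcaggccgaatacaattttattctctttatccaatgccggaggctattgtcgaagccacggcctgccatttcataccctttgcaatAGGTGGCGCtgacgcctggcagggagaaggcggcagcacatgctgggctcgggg
GNAS (chr20:58888930-58889229, GRCh38.p14, plus strand): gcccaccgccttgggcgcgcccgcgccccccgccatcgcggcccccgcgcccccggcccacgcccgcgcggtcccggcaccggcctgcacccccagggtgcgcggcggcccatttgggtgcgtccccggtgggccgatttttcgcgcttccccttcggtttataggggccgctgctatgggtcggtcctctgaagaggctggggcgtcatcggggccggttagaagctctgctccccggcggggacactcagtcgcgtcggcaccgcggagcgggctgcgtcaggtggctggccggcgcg

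The core occurred in the first MEST promoter at position 247, counted from 1 at the printed 5′ end, and in a second MEST entry that overlaps it and holds the same word. None of the other 13 entries held it. Over all 35116 RefSeq promoters of this length, 10.4% held a match. The printed H19 promoter has 6 CpG dinucleotides and the MEG3 promoter 19, while the MEST promoter has 13 and the GNAS promoter 43, against a median of 14 over all promoters. The GNAS entry has a GC content of 76.3%, against a median of 58.7%, and is thus the most CpG-rich of the 15. A match is a run of letters and not a bound site.

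BORIS was absent from all 7 windows in both lists, 0 of 534 peaks in TC-71 and 0 of 6 in TC-32. SMC1 was listed at 5 loci in TC-71 and at 6 in TC-32, with 10 peaks in TC-71 and 22 in TC-32, and PEG3 had none. H3K27ac was listed at 4 loci in TC-71 and at 5 in TC-32, with 6 domains in TC-71 and 13 in TC-32, and both PEG3 and the H19/IGF2 window had none. At no locus was the number of SMC1 peaks or of H3K27ac domains larger in TC-71. TC-32 had more SMC1 peaks at 5 loci and more H3K27ac domains at 4. The lists of each antibody were also brought to equal length, highest −log10 p first. The windows then held 10 SMC1 peaks in TC-71 against 11 in TC-32, so the excess in the SMC1 total was nearly gone. H3K27ac domains at equal length numbered 6 in TC-71, against 10 in TC-32. Counts per locus were not made at equal length. At GNAS, 4 TC-32 SMC1 peaks lay above the middle of the full list's ranks, and 1 of them was also listed in TC-71. In the full lists 4 of the 6 domains of TC-71 and 8 of the 13 of TC-32 reached a −log10 q of 5.

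The lists differ in length before any locus is looked at. Over chromosomes 1 to 22 and X there were 18264 SMC1 peaks in TC-71 and 32720 in TC-32, and 26334 H3K27ac domains in TC-71, against 36355 in TC-32. The ratio of TC-71 to TC-32 counts was 0.455 for SMC1 in the windows and 0.558 over the whole lists. For H3K27ac the same ratio was 0.462 in the windows and 0.724 over the whole lists. A library that is deeper or better enriched gives a longer list, the depth is unknown, and line and library cannot be told apart here. Copy number at these loci was not analysed here.

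**Figure D1:**
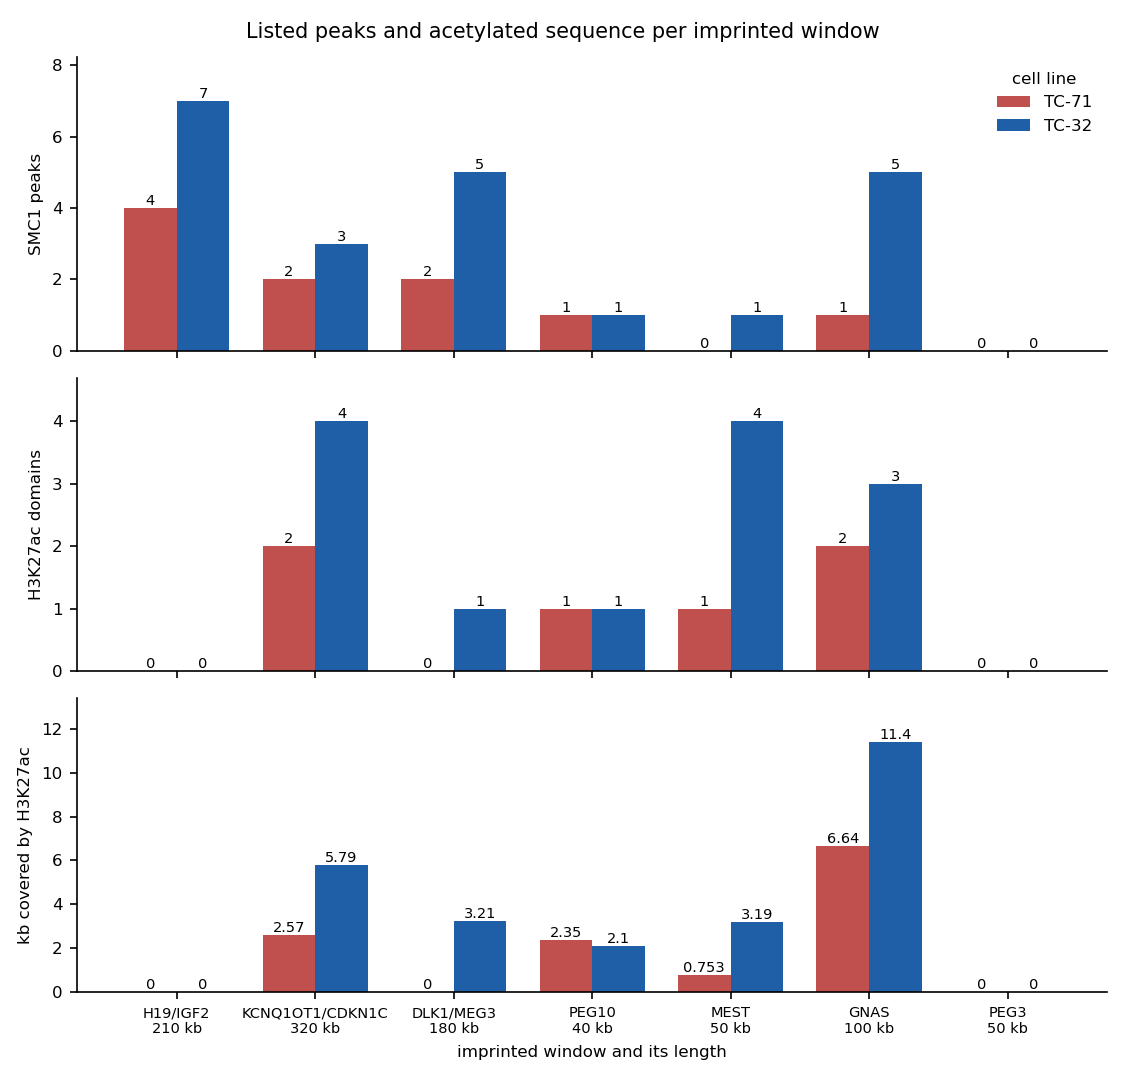
Bars give, for each imprinted window, the number of SMC1 peaks (top), the number of H3K27ac domains (middle) and the kilobases that H3K27ac covers (bottom), with TC-71 in red and TC-32 in blue and 1 list per line, so there are no error bars. PEG10 is the only locus with a single SMC1 peak and a single domain in each line, and PEG3 is empty in both.

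Per megabase, SMC1 peaks in the windows numbered 10.5 in TC-71, against 6.02 over the whole genome and 7.32 over the same 5 chromosomes. In TC-32 the windows held 23.2 SMC1 peaks per megabase, against 10.8 over the genome and 11.5 over the same chromosomes. H3K27ac domains numbered 6.32 per megabase of the windows in TC-71, against 8.67 over the genome and 10.3 over the same chromosomes. In TC-32 they numbered 13.7, against 12.0 over the genome and 13.2 over the same chromosomes. The windows were thus denser in SMC1 peaks than the genome in both lines, while for H3K27ac they lay below the genome in TC-71 and about level with their own chromosomes in TC-32. The windows hold genes and the genome average does not select for them, and this density was not compared with other gene-rich regions.

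H3K27ac covered 12.3 kb, or 1.3%, of the windows in TC-71 and 25.7 kb, or 2.7%, in TC-32. Over the genome it covered 1.41% in TC-71 and 2.15% in TC-32. Both lines had 11 kb of the windows acetylated in common.

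Of the 10 SMC1 peaks of TC-71 in the windows, 9 overlapped a TC-32 peak (90.0%, exact Clopper-Pearson 95% interval 55.5 to 99.7), against 90.3% of the whole TC-71 list. Of the 22 in TC-32, 9 overlapped a TC-71 peak (40.9%, interval 20.7 to 63.6), against 50.3% of the whole TC-32 list. Both shares lie near those of the whole lists, so the sharing is not a result about these loci. These intervals cover counting error only. At the 9 shared sites the summits of both lines lay 0 to 55 bp apart, with a median of 12 bp.

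All 6 H3K27ac domains of TC-71 overlapped one of TC-32 (100%, interval 54.1 to 100), against 67.3% of the whole list. In TC-32, 6 of 13 did (46.2%, interval 19.2 to 74.9), against 47.1% of the whole list. The TC-71 interval includes the share of its whole list, so counting error does not separate this share from the rest of the genome. Overlap here means at least 1 bp and not that a whole domain was covered. With lists of equal length 5 of the 6 TC-71 domains overlapped one of TC-32 (83.3%).

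Most SMC1 peaks of the windows lay outside acetylated domains, as did most of the whole lists. In TC-71, 2 of 10 SMC1 peaks lay in an H3K27ac domain of the same line (20%, interval 2.52 to 55.6), against 13.6% of the whole list. In TC-32, 4 of 22 did (18.2%, interval 5.19 to 40.3), against 25.9%. Both intervals include the share of the whole list, so this separation is not a result about these loci. Seen from the domains, 2 of 6 held an SMC1 peak in TC-71, against 8.84% of the whole list, and 4 of 13 did in TC-32, against 19.1%. These shares were above those of the whole lists, but they rest on few domains and no interval was computed for them.

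**Figure D2:**
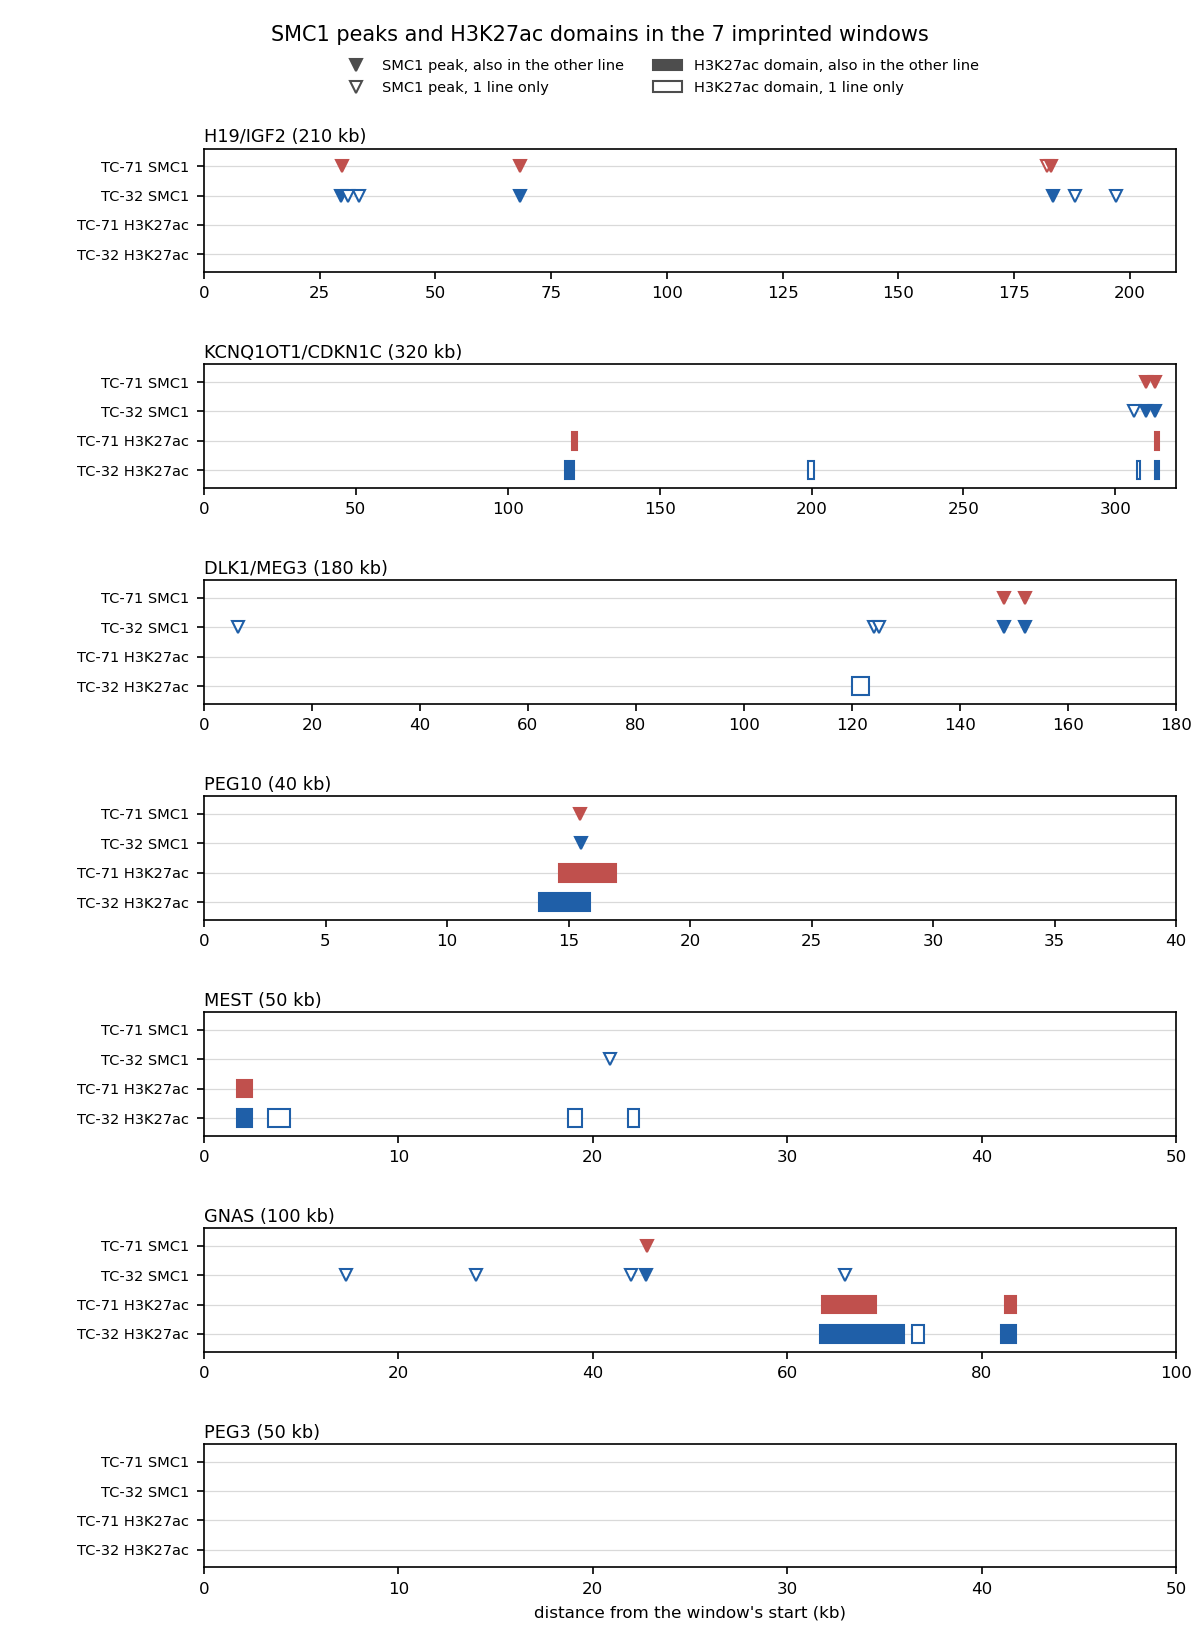
Each panel is 1 window, with the distance from its start in kb on the horizontal axis and the SMC1 peaks (triangles) and H3K27ac domains (boxes, with narrow ones drawn at a minimum width) of TC-71 above those of TC-32 on separate rows. Filled symbols are listed in both lines and open symbols in 1. In the GNAS window 4 of the 5 SMC1 triangles of TC-32 are open, and the H19/IGF2 window has SMC1 in both lines but no H3K27ac box.

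None of the window peaks carried BORIS. Of the SMC1 peaks, 0 of 10 in TC-71 and 0 of 22 in TC-32 overlapped a TC-71 BORIS peak, and over the whole lists 1.87% in TC-71 and 1.2% in TC-32 did. Of the H3K27ac domains, 0 of 6 in TC-71 and 0 of 13 in TC-32 overlapped one, while 1.14% in TC-71 and 0.82% in TC-32 did over the whole lists. At such shares fewer than 1 peak of each window set would carry BORIS, so a count of 0 is not a result about the windows.

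The BORIS peak nearest to any window lay 21.4 kb before the start of the H19/IGF2 window in TC-71 (chr11:1968465-1968594). The authors' values for it were a fold enrichment over background of 10.1 and a −log10 q of 18.2, where q is the authors' p-value adjusted over the genome. All fold and q values below are likewise the authors' and serve to describe or rank peaks within 1 list. This BORIS peak lay in an H3K27ac domain of TC-71 (chr11:1967948-1970312) with a fold of 12.1 and a −log10 q of 55.7, which stood at percentile 99.8 of its list. TC-32 had no BORIS peak there, but had an acetylated domain (chr11:1967612-1970955, fold 9.52, −log10 q 47.3) and an SMC1 peak (chr11:1968485-1968724, fold 4.05, −log10 q 7.37) that no TC-71 SMC1 peak overlapped. That SMC1 peak stood at percentile 21.2 of the TC-32 list, in a decile where 21.1% of peaks had a TC-71 partner, so lacking one was usual at that rank. A further SMC1 peak just past the end of the TC-71 domain was listed in both lines, with a fold of 4.66 and a −log10 q of 9.02 in TC-71 (chr11:1970314-1970450) and a fold of 6.8 and a −log10 q of 16.6 in TC-32 (chr11:1970266-1970476). Acetylation was thus listed at the BORIS peak in both lines, while SMC1 overlapped it in TC-32 only and was listed nearby in both. The TC-32 BORIS list held 6 peaks in all, so the lack of one here is not a result about this site.

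The other windows were farther from BORIS. In TC-71 the same peak was the nearest to the KCNQ1OT1/CDKN1C window, at 631 kb. The nearest to DLK1/MEG3 lay 418 kb away (chr14:100752079-100752255, fold 9.6, −log10 q 36.9) and the nearest to PEG3 1.09 Mb away (chr19:56215226-56215317, fold 6.13, −log10 q 8.78). For the remaining 3 windows the distance was several megabases. It was 2.05 Mb at PEG10 (chr7:92219677-92219848, fold 8.53, −log10 q 16.9), 3.92 Mb at GNAS (chr20:61422907-61422996, fold 5.48, −log10 q 6.47) and 5.19 Mb at MEST (chr7:135347062-135347201, fold 6.7, −log10 q 14.9). In TC-32 the only BORIS peak on any of these chromosomes lay on chromosome 11 (chr11:62609088-62609252, fold 2.85, −log10 q 4.95), 60.4 Mb from the H19/IGF2 window and 59.7 Mb from the KCNQ1OT1/CDKN1C window.

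The order of genes named below is that of the RefSeq table and is given by name only. That table is in another build, so no peak was assigned to a gene, a promoter, an exon or a control region. Where a side of a window is called by a gene, it follows that order alone. The rank percentile of a peak is its place by −log10 q within its own list, where 100 is the highest.

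H19 makes a maternally expressed noncoding RNA that hosts the microRNA miR-675, and IGF2 encodes a paternally expressed fetal growth factor. Along their window in band 11p15.5, from its start, come H19 and MIR675, then IGF2 and, at the far side, INS (insulin) and TH (tyrosine hydroxylase). SMC1 was listed at 4 places in TC-71 and at 7 in TC-32, the highest counts of any window. Per 100 kb these are 1.9 peaks in TC-71 and 3.33 in TC-32, below the 2.5 of PEG10 in TC-71 and the 5 of GNAS in TC-32. The sites fell into a group about 30 kb from the start, 1 site at 68.2 kb and a group beyond 180 kb.

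The strongest SMC1 peak of the window in both lines was the one in the middle. In TC-71 (chr11:2058158-2058447) it had a fold of 11.1 and a −log10 q of 27.6, at percentile 82.8. In TC-32 (chr11:2058168-2058420) it had a fold of 12.3 and a −log10 q of 45, at percentile 82.3. Its summits lay 13 bp apart, so both lists hold the same site, among the upper 20% of their ranks.

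In the group near the start, TC-71 had 1 SMC1 peak (chr11:2019663-2019801, fold 6.56, −log10 q 10.1). TC-32 had a peak at the same site (chr11:2019637-2019837, fold 7.56, −log10 q 19.4), with summits 4 bp apart. It also had 2 further peaks within 4 kb (chr11:2021136-2021318, fold 5.15, −log10 q 9.38, and chr11:2023332-2023509, fold 5.72, −log10 q 8.59) that TC-71 lacked. Spacings between the summits of these 3 TC-32 peaks were 1.48 and 2.2 kb. The 2 unshared peaks ranked at percentiles 29.1 and 26.2, in a decile where 21.1% of all TC-32 SMC1 peaks had a TC-71 partner, so most peaks of this rank were listed in TC-32 alone. In the human genome the H19 control region, with its several CTCF sites, lies close to H19. Which of these peaks falls in it was not analysed here.

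On the far side, TC-71 had 2 peaks with summits 1.2 kb apart. One of them (chr11:2172751-2172921, fold 5.13, −log10 q 8.15) was shared with TC-32. The other (chr11:2171564-2171714, fold 4.71, −log10 q 5.43) was the only SMC1 peak in any window that was listed in TC-71 alone. It ranked at percentile 8.91, and 76.7% of TC-71 peaks in that decile of the list had a TC-32 partner. The nearest TC-32 peak lay 0.967 kb from it.

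The TC-32 counterpart of the shared far-side peak was 799 bp wide (chr11:2172682-2173480) and had 3 summits, with folds of 9.47, 3.99 and 6.93. The TC-71 peak lay under the first of them and covered 21.4% of the interval. TC-32 had 2 further far-side peaks that TC-71 lacked (chr11:2177775-2177966, fold 5.95, −log10 q 11.1, and chr11:2187439-2187596, fold 5.16, −log10 q 7.16). All 4 SMC1 peaks that TC-32 alone had in this window ranked below the middle of its list, between percentiles 20.5 and 34.2, in deciles where 21.1% or 31% of peaks had a TC-71 partner.

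No H3K27ac domain was listed in the H19/IGF2 window in either line. The nearest lay outside its start, 3.79 kb away in TC-71 (chr11:1985370-1986214, fold 3.71, −log10 q 4.06) and 4.04 kb away in TC-32 (chr11:1985460-1985958, fold 2.7, −log10 q 2.4). Every SMC1 peak of the window lay at least 33.4 kb from a domain. No SMC1 peak of this window was therefore listed inside or close to an acetylated domain.

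CDKN1C encodes p57KIP2, a maternally expressed inhibitor of cyclin-dependent kinases, and KCNQ1OT1 is the long noncoding RNA that silences it in cis on the paternal copy. From the start of their window, which crosses from band 11p15.5 into 11p15.4, come KCNQ1 (a potassium channel in whose intron KCNQ1OT1 starts), KCNQ1OT1, KCNQ1DN and CDKN1C, with PHLDA2 farther on. In both lines all SMC1 peaks of this 320 kb window lay in its last 14 kb, on the CDKN1C side. TC-71 had 2 and TC-32 had 3.

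The site at 310 kb was strong in both lines. It had a fold of 7.73 and a −log10 q of 38.2 in TC-71 (chr11:2909606-2909917, percentile 92.2) and a fold of 13.9 and a −log10 q of 74.8 in TC-32 (chr11:2909614-2909909, percentile 94.3). The summits fell on the same base. The site at 313 kb had a fold of 8.97 and a −log10 q of 28.2 in TC-71 (chr11:2913370-2913572) and a fold of 14 and a −log10 q of 54.5 in TC-32 (chr11:2913308-2913650). It was 1 of the 2 shared cohesin sites in the windows that lay in acetylated chromatin in both lines, the other being at PEG10. TC-32 alone listed a weak peak before them (chr11:2906293-2906434, fold 4.56, −log10 q 5.05, percentile 11.2).

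H3K27ac at this locus was not limited to the stretch that held SMC1. A domain in the interior of the window, 119 to 122 kb from the start, had a fold of 5.39 and a −log10 q of 10.7 in TC-71 (chr11:2720621-2722260). In TC-32 (chr11:2719434-2722093) it had a fold of 5.08 and a −log10 q of 14.3. The TC-32 domain was 2660 bp long, against 1640 bp in TC-71, and no SMC1 peak lay within 165 kb of it in either line. The domain that held the shared cohesin site had a fold of 3.66 and a −log10 q of 6.28 in TC-71 (chr11:2913270-2914201) and a fold of 4.23 and a −log10 q of 8.24 in TC-32 (chr11:2913221-2914132).

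TC-32 listed 2 more domains here. The larger, 1845 bp long (chr11:2798888-2800732), had a fold of 5 and a −log10 q of 10.9, at percentile 67.4, and lay 76.6 kb from the nearest TC-71 domain. Of TC-32 domains in that decile of the list 55.5% had a TC-71 partner. The smaller (chr11:2907426-2907800) had a fold of 3.66 and a −log10 q of 6.01. In all, H3K27ac covered 2.57 kb of the window in TC-71 and 5.79 kb in TC-32.

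DLK1 encodes a paternally expressed transmembrane relative of the Notch ligands, and MEG3 is a maternally expressed noncoding RNA with tumour-suppressor properties. In their window in band 14q32.2, DLK1 comes first, then MEG3 and a run of microRNA genes and RTL1. The MEG3 side held the highest-ranked SMC1 peak of all the windows in TC-71. It had a fold of 14.1 and a −log10 q of 73.4 (chr14:101317551-101317878), at percentile 99.4. In TC-32 the same site (chr14:101317540-101317836) had a fold of 10.9 and a −log10 q of 56.8, at percentile 88.6, with summits 12 bp apart.

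A weaker site followed with its summit 4.28 kb farther in TC-71 and 4.29 kb farther in TC-32. Its fold was 4.67 and its −log10 q 7.8 in TC-71 (chr14:101321895-101322028), and 5.04 and 10.6 in TC-32 (chr14:101321878-101322050). These were the only SMC1 peaks of TC-71 in the window, and both were shared.

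TC-32 had 3 more SMC1 peaks at DLK1/MEG3. The strongest of them lay at the DLK1 end, 6.08 kb from the start (chr14:101176082-101176364), with a fold of 10.8 and a −log10 q of 35.9, at percentile 75.4. The nearest TC-71 peak was 54.7 kb away, although 80.4% of TC-32 SMC1 peaks in that decile of the list had a TC-71 partner. The other two lay 124 and 125 kb from the start, at percentiles 16.1 and 31. The first (chr14:101293518-101293723, fold 4.54, −log10 q 5.98) overlapped the edge of an H3K27ac domain of TC-32 and the second (chr14:101294503-101294670, fold 5.79, −log10 q 9.95) lay 0.931 kb from it.

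That domain was the only one of the window (chr14:101290364-101293571). It was 3208 bp long, with a fold of 3.53 and a −log10 q of 6.12 in TC-32, at percentile 49.9. TC-71 had no domain in the window, and its nearest lay 3.55 kb beyond the far end (chr14:101353547-101357287, fold 4.5, −log10 q 12.5). H3K27ac covered none of the window in TC-71 and 3.21 kb in TC-32. Of TC-32 domains in the same decile of the list, 30.4% had a TC-71 partner, so a domain of this strength was more often than not listed in TC-32 alone.

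PEG10 is a paternally expressed gene derived from a retrotransposon and needed for the placenta, and it lies head to head with SGCE in band 7q21.3. Its window held 1 SMC1 peak inside 1 H3K27ac domain in each line. The SMC1 peak had a fold of 4.96 and a −log10 q of 6.18 in TC-71 (chr7:94285409-94285552) and a fold of 4.8 and a −log10 q of 9.64 in TC-32 (chr7:94285431-94285642). The summits were 55 bp apart, the widest gap among the 9 shared sites, and the peak ranked low in both lists, at percentile 12.1 of the TC-71 list and 29.7 of the TC-32 list.

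The PEG10 domains were of similar length but not of the same extent. The TC-71 domain (chr7:94284626-94286976) had a fold of 4.48 and a −log10 q of 9.56, and 54.4% of it was covered by that of TC-32. The TC-32 domain (chr7:94283801-94285903) had a fold of 5.38 and a −log10 q of 19.9, and 60.8% of it was covered by that of TC-71. Acetylation took up 2.35 kb of this 40 kb window in TC-71 and 2.1 kb in TC-32, the only locus where the acetylated length was larger in TC-71.

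MEST encodes a paternally expressed member of the α/β-hydrolase fold family and hosts miR-335 in band 7q32.2, with CEP41 before it and COPG2 after it. TC-71 had no SMC1 peak in the window, and its nearest lay 221 kb outside (chr7:130380774-130380957, fold 6.09, −log10 q 9.64). TC-32 had 1 (chr7:130130806-130130947) with a fold of 4.77 and a −log10 q of 6.78, at percentile 19.3. In that decile of the TC-32 list 11.9% of peaks had a TC-71 partner, so a peak of this rank was usually without one.

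Acetylation at MEST was weak in both lines. The domain nearest the start had a fold of 3.21 and a −log10 q of 3.44 in TC-71 (chr7:130111708-130112460) and a fold of 2.88 and a −log10 q of 2.33 in TC-32 (chr7:130111722-130112458). It was the only domain of TC-71, and its TC-32 partner stood at percentile 2.17, close to the bottom of that list. TC-32 alone listed 3 more domains, at chr7:130113274-130114412 (fold 2.78, −log10 q 2.93), chr7:130128711-130129441 (fold 2.81, −log10 q 2.85) and chr7:130131752-130132334 (fold 3.35, −log10 q 4.77). In their deciles of the TC-32 list 16.9%, 16.9% and 25.1% of domains had a TC-71 partner, so domains of this rank were usually listed in TC-32 alone. The SMC1 peak of TC-32 lay between the last 2 of these, 0.804 kb from the nearer one. No MEST domain of either line reached a −log10 q of 5.

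GNAS encodes the stimulatory G-protein α-subunit and, from alternative imprinted promoters, several other transcripts, with the antisense GNAS-AS1 before it in band 20q13.32. It was the window in which the lines differed most in the number of SMC1 peaks, with 1 peak in TC-71 against 5 peaks in TC-32. The shared site had a fold of 12.1 and a −log10 q of 39.1 in TC-71 (chr20:57445393-57445653, percentile 92.5). In TC-32 (chr20:57445338-57445680) it had a fold of 10.2 and a −log10 q of 70.4, at percentile 93.2, with summits 1 bp apart.

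The strongest SMC1 peak of the window in TC-32 was another (chr20:57427772-57428043), with a fold of 20.8 and a −log10 q of 89.5, at percentile 96.8. TC-71 had no peak there, and its nearest lay 17.3 kb away. Of the 1036 TC-32 SMC1 peaks with at least this −log10 q, 14 (1.35%) lacked a TC-71 partner, and this was one of them. TC-32 alone also listed peaks at chr20:57414480-57414776 (fold 11.2, −log10 q 36.3, percentile 75.6) and chr20:57443786-57444055 (fold 11.6, −log10 q 33.6, percentile 73.4). In their decile of the list 80.4% had a TC-71 partner. These 3 peaks and the one at the DLK1 end were the only ones above the middle of the TC-32 SMC1 ranks within the windows that TC-71 lacked.

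The last TC-32 peak at GNAS (chr20:57465922-57466059, fold 4.29, −log10 q 4.58) was weak and lay inside acetylated chromatin of both lines. From the start of the window the spacings between summits in TC-32 were 13.3, 16, 1.56 and 20.5 kb. Within 500 kb on either side of the window there were 5 SMC1 peaks in TC-71 and 8 in TC-32. Of the 4 of these 8 above the middle of the TC-32 ranks, 3 were also listed in TC-71, against 1 of 4 such peaks inside the window. At DLK1/MEG3 the same counts were 6 of 6 in the flanks and 1 of 2 inside. They were 15 of 15 and 3 of 3 at H19/IGF2, and 8 of 8 and 2 of 2 at KCNQ1OT1/CDKN1C. The PEG10, MEST and PEG3 windows held no such peak. In their flanks 5 of 7, 5 of 8 and 3 of 3 such peaks, in that order, were also listed in TC-71. These counts are small, and no difference between flank and window was tested. Whether reads lay at the unlisted sites in TC-71 was not analysed here, since a list leaves out what falls below its threshold.

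The GNAS window held the longest acetylated stretch of the 7. The main domain was 5509 bp long in TC-71 (chr20:57463582-57469090), with a fold of 8.29 and a −log10 q of 25.2, at percentile 90.8. In TC-32 it was 8596 bp long (chr20:57463360-57471955), with a fold of 6.7 and a −log10 q of 21.2, at percentile 83.3, and it contained the whole of the TC-71 domain. A weaker domain had a fold of 2.89 and a −log10 q of 3.04 in TC-71 (chr20:57482393-57483522) and a fold of 3.74 and a −log10 q of 6.98 in TC-32 (chr20:57481957-57483489). Between them TC-32 alone had a domain (chr20:57472752-57474010, fold 2.98, −log10 q 4.25). H3K27ac covered 6.64 kb of the window in TC-71 and 11.4 kb in TC-32, and 6.61 kb were common to both, so almost all acetylation of TC-71 at GNAS was also found in TC-32.

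PEG3 encodes a paternally expressed zinc-finger protein and shares its control region with ZIM2 in band 19q13.43. None of the 6 lists held a peak in its window. The nearest SMC1 peak was 251 kb outside in TC-71 (chr19:57610709-57610848, fold 3.74, −log10 q 4.36) and 49.9 kb outside in TC-32 (chr19:57259883-57260131, fold 5.4, −log10 q 13.8). The nearest H3K27ac domain was 203 kb outside in TC-71 (chr19:57106645-57107107, fold 5.23, −log10 q 13.1) and 45.9 kb outside in TC-32 (chr19:57262142-57264142, fold 2.98, −log10 q 3.88). An empty window means that nothing passed the authors' threshold there and not that the mark was absent.

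**Figure D3:**
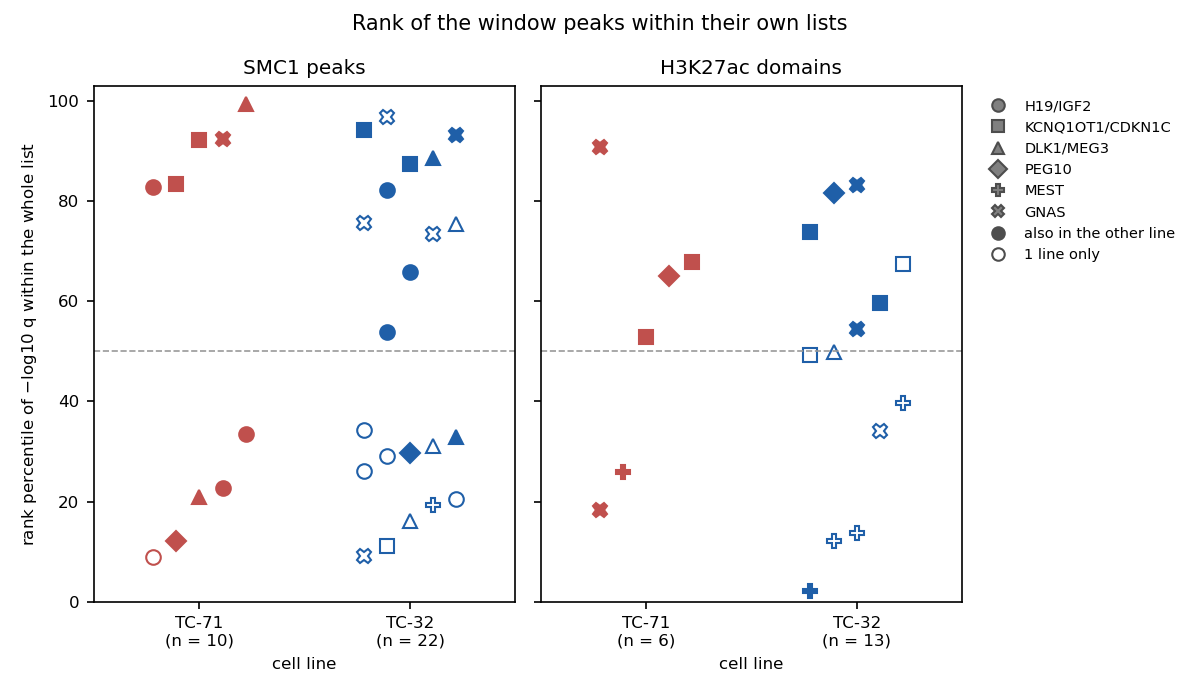
Points give the rank percentile by −log10 q of each window peak within its own whole list, for SMC1 (left) and H3K27ac (right), with TC-71 left of TC-32, symbols for the loci, and filled points listed in both lines. The highest TC-71 SMC1 point is the DLK1/MEG3 site at 99.4, and the highest open TC-32 point is the GNAS site at 96.8. The dashed line marks the middle of the list.

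Across the windows, shared SMC1 peaks of TC-32 ranked higher in their list than those it listed alone, with medians of 82.3 for 9 shared and 29.1 for 13 unshared peaks. The same holds in the whole TC-32 list, where the share with a TC-71 partner was 5.92% in the lowest decile of the ranks and 96.7% in the highest. Of the 13 unshared peaks 9 ranked below the middle. Above it, 7 of 11 window peaks had a TC-71 partner (63.6%), against 78.4% of 16337 peaks over the whole list. The 4 without a partner were 3 in the GNAS window and 1 in the DLK1/MEG3 window. This share rests on 11 peaks, no interval was computed for it, and its difference from the whole list was not tested.

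**Figure D4:**
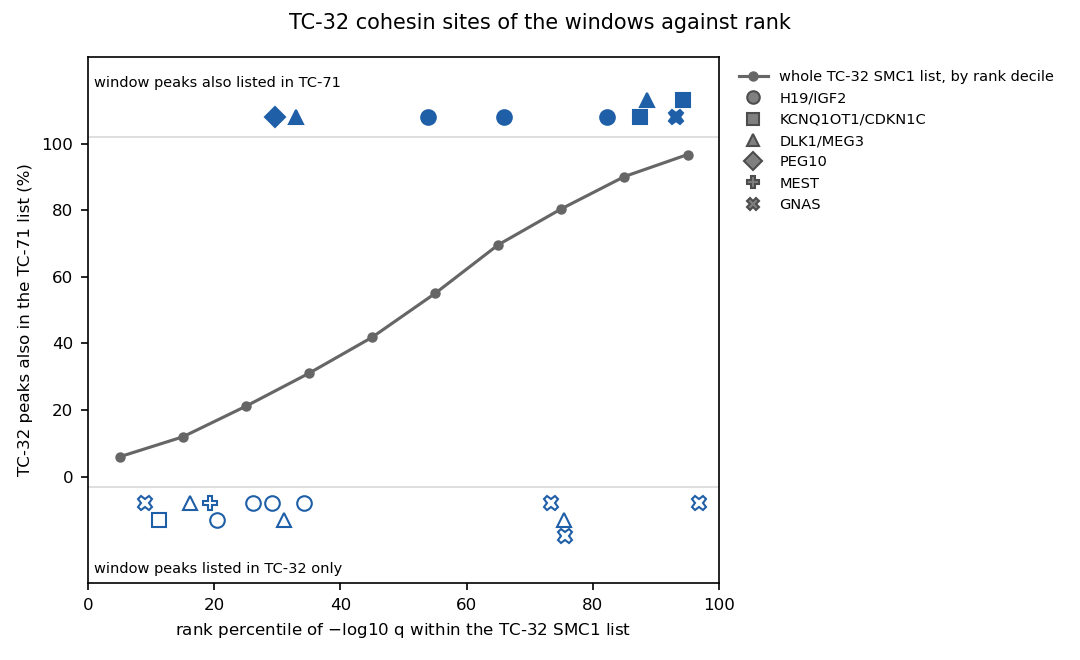
The line gives the percentage of all TC-32 SMC1 peaks that overlap a TC-71 peak, by decile of the rank percentile of −log10 q in TC-32. Symbols above and below it mark the 22 window peaks of TC-32 at their own rank, filled where also listed in TC-71 and open where listed in TC-32 only, and their height within each band has no meaning. The line climbs to 96.7%, and 4 open symbols, 3 of GNAS and 1 of DLK1/MEG3, lie right of the middle.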

How the data were processed

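Chromatin immunoprecipitation with sequencing was run with 2 samples per line and antibody. Tools named in the submitters' processing notes are MACS2 2.1.1, STAR 2.5.1b, deepTools 2.2.4, SAMtools 1.3.1 and Picard, with hg19 as the build. Their roles and settings, and the way in which 2 samples became 1 list, are not stated there. Per the labels, each list was made with that line's own input as control. The authors deposited narrow peaks (BORIS, SMC1) and broad domains (H3K27ac), each with a score, a fold enrichment ratio, a −log10 p and a −log10 q, and for narrow peaks a summit offset. The score equals the −log10 q times 10, cut to a whole number. The lists do not give the depth of a sample, so no precision can be given beyond counts.

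A narrow peak listed with several summits was counted once, with the values of its highest −log10 q. Peaks outside chromosomes 1 to 22 and X, 30 intervals in all, were dropped. Coordinates are hg19, counted from 1, and 0 intervals passed an hg19 chromosome end (lengths from GenomeInfoDb 1.38.1, bands from circlize 0.4.16). Overlap meant at least 1 bp. Python 3.11.15 with pandas 2.3.3, scipy 1.17.1 and matplotlib 3.10.9 was used, and the overlap code was tested on simulated data. No test was run between lines. The alternatives tried were lists of equal length, a minimum −log10 q of 5, windows widened by 25 kb, peaks wholly inside, 50% coverage, merging within 1 kb and summits within 500 bp.

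The loci, windows and peak rule were chosen with earlier results of these data known. Named peaks are each BORIS peak nearest to a window, the highest −log10 q peak per locus, line and antibody, all peaks of a kind where a window has at most 5, and, in larger windows, peaks of 1 line above the middle rank of their list. The other peaks named at H19/IGF2, and the acetylated and SMC1 peaks around the nearest BORIS peak, were chosen after their values were seen.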

Additional observations from a re-analysis of the deposited data

How the results depend on the processing

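No paired analysis was possible because each line and antibody has a single list without values per replicate, and for the same reason no replicate could be left out. Of 66 alternative values of the totals and shares, 61 stayed within 1.5 times the count or within the interval. Some orders did change with windows widened by 25 kb. The share of SMC1 peaks inside H3K27ac was then 12.5% in TC-71 and 20% in TC-32, against 20% and 18.2% as reported. H3K27ac coverage in TC-71 was then 1.48%, above the 1.41% of the genome, against 1.3% as reported. With windows widened by 25 kb on both sides, TC-71 had 1 BORIS peak (0 as reported) and 16 SMC1 peaks (10), and TC-32 had 20 H3K27ac domains (13). With lists of equal length TC-32 kept 11 SMC1 peaks (22 as reported), against 10 in TC-71, and 63.6% of them were shared, against 70% in TC-71. The excess in the total thus came largely from the lower part of the longer TC-32 list. At GNAS, TC-32 had 4 SMC1 peaks above the middle of its ranks, of which TC-71 listed 1, and another peak at percentile 9.1. Counts per locus were not made at equal length, so whether the GNAS difference depends on list length was not tested. With a −log10 q of at least 5, TC-32 had 8 H3K27ac domains. Per locus, 25 of 28 values stayed within 1.5 times the count at that threshold. The MEST domains (1 in TC-71, 4 in TC-32) and 1 of 2 GNAS domains of TC-71 were lost. Within that limit, GNAS in TC-32 fell from 3 to 2 domains and from 5 to 4 SMC1 peaks. Unknown depth limits every absence.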

Other observations

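Just outside the DLK1/MEG3 window, within 25 kb of its far end, TC-71 listed SMC1 peaks that the window leaves out. The strongest (chr14:101367206-101367524) had a fold of 14.1 and a −log10 q of 71.3 in TC-71, at percentile 99.3, and the TC-32 peak at that place (chr14:101367319-101367517) had a fold of 8.35 and a −log10 q of 19.5, at percentile 54.3. It was followed by a site with a fold of 7.17 in TC-71 (chr14:101370784-101370956) and 4.61 in TC-32 (chr14:101370733-101370960). With the site inside the window at percentile 99.4, TC-71 thus had 2 cohesin sites of the top hundredth of its list on the MEG3 side. Percentiles are places within lists of different length and show no change between lines.

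The flanks of 25 kb around all windows held 1 BORIS peak, 6 SMC1 peaks and 3 H3K27ac domains of TC-71, against 0 BORIS peaks, 8 SMC1 peaks and 7 H3K27ac domains of TC-32. Beside DLK1/MEG3 an H3K27ac domain was present in both lines, with a fold of 4.5 in TC-71 (chr14:101353547-101357287) and 4.83 in TC-32 (chr14:101353609-101357544). The values were chosen after the flanks had been seen, and no hypothesis was tested.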
